A study of Homo sapiens with 36 samples.

Results

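The genes described here are 48 DNA replication and S phase genes, taken by symbol from a table of 60628 genes counted in 36 RNA libraries of 7 human T cell neoplasm lines. Each symbol matched 1 gene, and all 48 passed the filter on low counts that left 21138 genes tested. By role they are 11 genes of the replicative helicase, 5 of origin licensing and firing, 13 polymerase, primase, ligase and clamp genes, 6 of nucleotide supply, 6 of chromatin and histone supply, and 7 cyclins, E2F factors and checkpoint genes. The nucleotide supply group includes UNG, a uracil glycosylase, which does not itself supply nucleotides. Polyadenylated RNA was sequenced after knockdown of GATA3, a transcription factor of T cell development (18 libraries, genotype label GATA-3 knock down), and in scramble controls (18 libraries, genotype label WT). GATA3 dependence was the question of the series, as its title states.

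Cutaneous T lymphocyte is the cell type label of 3 lines, here the CTCL lines: H9 (2 control and 3 knockdown libraries), MyLa (Myla CD4+ in the labels, 3 and 3) and Mac1 (2 and 2). The 4 lines labelled acute lymphoblastic leukemia, here the T-ALL lines, were THP6 (3 and 2), MOLT4 (2 and 2), CCRF-CEM (3 and 3) and SUP-T1 (3 and 3). All are established lines grown in RPMI with serum. Neither the reagent's sequence nor the source of the replicates (separate cultures or not) is named in the labels, so the p-values rest on differences between libraries that may be technical.

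Library totals ran from 18.6 M to 50.6 M expected counts, and the 48 genes took 0.661% to 1.14% of them. GATA3 in the knockdown libraries was 0.365 (MOLT4) to 0.609 (MyLa) of the control mean in 6 lines, but in SUP-T1 it was 3.40 times higher in the libraries labelled knockdown. Directions in SUP-T1 are therefore those of the labels, not of GATA3. THP6 knockdown 2 stood apart from THP6 knockdown 1, with a scatter per gene of 155 in units of Poisson variance, and CCRF-CEM control 2 from its group (85.8 and 103). The other replicate pairs reached at most 34.0. Of 15 T cell marker genes, 8 (Mac1) to 14 (SUP-T1) had at least 1 CPM (the count scaled to a common TMM-adjusted library total) in the controls. MyLa, labelled CD4+, was under 1 CPM for CD4 and CD3E, and Mac1 was under 1 CPM for CD3D, CD3E and CD3G. Of 12 markers of other cell types, 1 or 2 reached 1 CPM in each line. The highest control means among them were COL1A1 in MyLa (104 CPM), PECAM1 in MOLT4 (88.7), EPCAM in H9 (73.3) and CSF1R in Mac1 (38.6).

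Before S phase, the origin recognition complex with CDC6 and CDT1 loads the MCM2-7 helicase onto DNA, and CDC45 and the GINS complex then activate it. Polymerase alpha with primase starts each new strand, the polymerases delta and epsilon extend it on the PCNA clamp, and RRM1, RRM2, TYMS and TK1 supply the nucleotides. Cyclin E with its kinase releases E2F factors from the retinoblastoma protein, and E2F sites in the promoters of these genes link their transcription to the G1 to S transition. E2F1 and E2F2 activate such promoters, and E2F8 represses them. In bulk RNA, fewer cells in S phase and less RNA per cell cannot be told apart.

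RefSeq promoter windows of GRCh38.p14, from 250 bases before to 50 after the start site, were at hand for 42 of the 48 genes. MCM4, MCM5, GINS4, POLD3, CCNE2 and E2F8 had no entry. An E2F word (TTTCCCGC, TTTGGCGC, TTTGCCGC or TTTCGCGC, on either strand) stood in the windows of 25 of the 42 genes (59.5%), against 3.99% of all 27305 genes with a window. The word CCAAT, bound by NF-Y, stood in 23 (54.8%) against 39.7% of all genes, on either strand. A GATA word (AGATAA or TGATAA, on either strand) stood in 1 (2.38%, RFC3) against 19.4%. A match is only a match of letters in this window, and a gene with several words was counted once. The windows of all genes were not matched to those of the members for base composition. The shares therefore cannot tell a lack or excess of a word from a difference in base composition. The 30 bases around the word are shown for the genes whose responses differ most between lines, for E2F1 and for the nucleotide supply genes TK1 and RRM2, 5′ to 3′ on the gene's strand, with the word in capitals. The E2F2 window is chr1:23531257-23531286 (minus strand), the DTL window chr1:212035729-212035758 (plus), the CDCA7 window chr2:173354796-173354825 (plus), the UHRF1 window chr19:4909476-4909505 (plus), the MCM3 window chr6:52284728-52284757 (minus) and the E2F1 window chr20:33686387-33686416 (minus). For TK1 (chr17:78187081-78187110, minus) and RRM2 (chr2:10122661-10122690, plus), whose windows hold none of the 4 E2F words, the capitals mark CCAAT or its reverse complement ATTGG.
E2F2: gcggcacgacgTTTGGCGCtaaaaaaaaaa
DTL: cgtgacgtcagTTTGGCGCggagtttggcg
E2F1: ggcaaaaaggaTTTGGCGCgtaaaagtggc
MCM3: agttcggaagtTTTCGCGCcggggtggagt
CDCA7: tgtgtcccaacGCGGGAAAgacagcccgag
UHRF1: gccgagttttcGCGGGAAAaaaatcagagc
TK1: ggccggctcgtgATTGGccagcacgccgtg
RRM2: ggggcaccaaagCCAATgggaagggccggg
E2F2, DTL and E2F1 share the same word on the same strand, and in CDCA7 and UHRF1 the word is the reverse complement of TTTCCCGC. E2F2 and DTL had the same word close to their start sites (its first base at -42 and -8). They were called in opposite directions in 3 lines, as given under the lines. The E2F2 call in SUP-T1 and the DTL call in CCRF-CEM did not hold in every fit without 1 library. Whether E2F factors act through these words was not tested.

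In the control libraries the 48 genes varied over a narrower range of levels across lines than the tested genes as a whole. The median range of control levels over the 7 lines was 1.01 on the log2 scale for the 48 genes and 1.61 for the 11622 tested genes with at least 5 CPM, and 25 of 48 had a range over 1 against 80.3% of those genes. Per kilobase of exon, PCNA, the sliding clamp, was highest (median over lines 382 CPM per kb), followed by the helicase subunits MCM7 (276) and MCM3 (169). CCNE2, which encodes cyclin E2, was lowest at 4.23 CPM per kb. E2F2 (ENSG00000007968) lies at chr1:23506430-23531220, TK1 (ENSG00000167900) at chr17:78174075-78187233, RRM2 (ENSG00000171848) at chr2:10120698-10131419 and DTL (ENSG00000143476) at chr1:212035553-212107400 (GRCh38, GENCODE 29, protein coding). The smallest ranges of level were those of POLA1, the catalytic subunit of polymerase alpha (0.56 log2, 47.4 to 69.7 CPM), and MCM4 (0.59 log2, 284 to 428 CPM).

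CDCA7L, a relative of the MYC target CDCA7, was at or near 0 in the CTCL lines. Its control level was 124 ± 2.23 CPM in SUP-T1, 136 ± 5.89 in CCRF-CEM, 130 ± 3.55 in THP6 (SD, n = 3 each) and 190.5 ± 1.41 in MOLT4 (n = 2). In the 7 control libraries of the CTCL lines it had 1 count in all, in H9, and in all 15 CTCL libraries also 1 count. The lowest T-ALL line exceeded the pooled CTCL controls by a ratio of 23889, with an exact Poisson 95% interval of 4288 to 943574 for counting error only. With controls summed per line, CDCA7L was the 1 member that edgeR called, against 0.28% of all genes, but it passed the filter on low counts only through the T-ALL lines, so that call is no support for the difference in counts. DNAH11, which overlaps it on the other strand, had at most 1.08 CPM in any library.

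Other members with a wide range of control levels were CCNE2, E2F2 and TK1. CCNE2 ran from 4.25 ± 0.317 CPM in MyLa through 6.80 in Mac1, 9.94 in H9, 18.6 in CCRF-CEM, 19.2 in THP6 and 37.2 in MOLT4 to 55.0 ± 0.443 in SUP-T1. E2F2 followed a like order, from 31.0 ± 2.11 in Mac1, 33.3 in MyLa and 87.98 in H9 through 134 in CCRF-CEM and in MOLT4 and 196 in THP6 to 321 ± 4.69 in SUP-T1. For both genes every T-ALL line was above every CTCL line. Beside CDCA7L, the line means of E2F8, CDC6 and, narrowly, CDCA7 were split likewise, and those of RRM2 the other way. The share of all genes with such a split was not counted. For CCNE2 and E2F2 the test of the classes depended on the tool. The log2 differences were -2.20 and -1.94, with adjusted p = 0.173 and 0.192 by edgeR and 0.00337 and 0.019 by DESeq2. Between the classes DESeq2 called 6.25% of the members and 8.85% of all genes. CCRF-CEM and THP6 did not differ beyond their spread for CCNE2, nor CCRF-CEM and MOLT4, or Mac1 and MyLa, for E2F2. TK1, the salvage thymidine kinase, had no such split: it was lowest in MOLT4 (53.7 ± 1.76), then SUP-T1 (106), H9 (119), CCRF-CEM (215), THP6 (220 ± 21.8) and MyLa (237), and highest in Mac1 (317 ± 8.06).

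**Figure D1:**
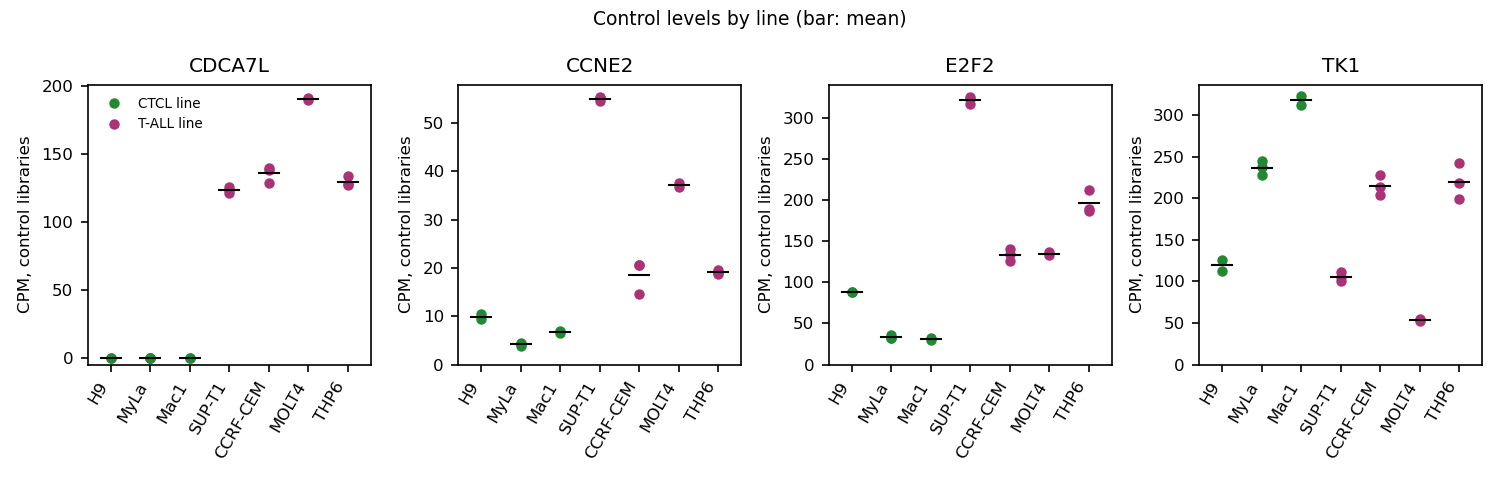
Control libraries of each line (points, CPM) and their mean (bar) for CDCA7L, CCNE2, E2F2 and TK1. CDCA7L is at or near 0 in the 3 CTCL lines and between 124 and 190.5 CPM in the 4 T-ALL lines, and TK1 is lowest in MOLT4.

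On GATA3 knockdown the 48 genes leaned one way in 2 lines: in MOLT4 41 of 48 were fitted higher, and in MyLa 42 of 47 with at least 1 CPM were fitted lower, with 0 calls. In the other 5 lines 23 to 26 were fitted higher. In all, 28 members were called in at least 1 line, of which 25 in a line other than SUP-T1, and 20 in no line. The share of all genes called in at least 1 line was not counted, so the 28 have no background beside them. The 20 were MCM2, MCM7, CDC6, CDT1, GINS1, GINS3, GINS4, ORC6, RFC3, RFC4, POLA2, POLE, POLE2, POLD3, PRIM1, PRIM2, RRM1, CLSPN, CHAF1A and FEN1, with log2 fold changes between -0.37 and 0.47, both extremes in THP6. Called means an adjusted p under 0.05 in edgeR's quasi-likelihood test, adjusted over all 21138 genes.

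**Figure D2:**
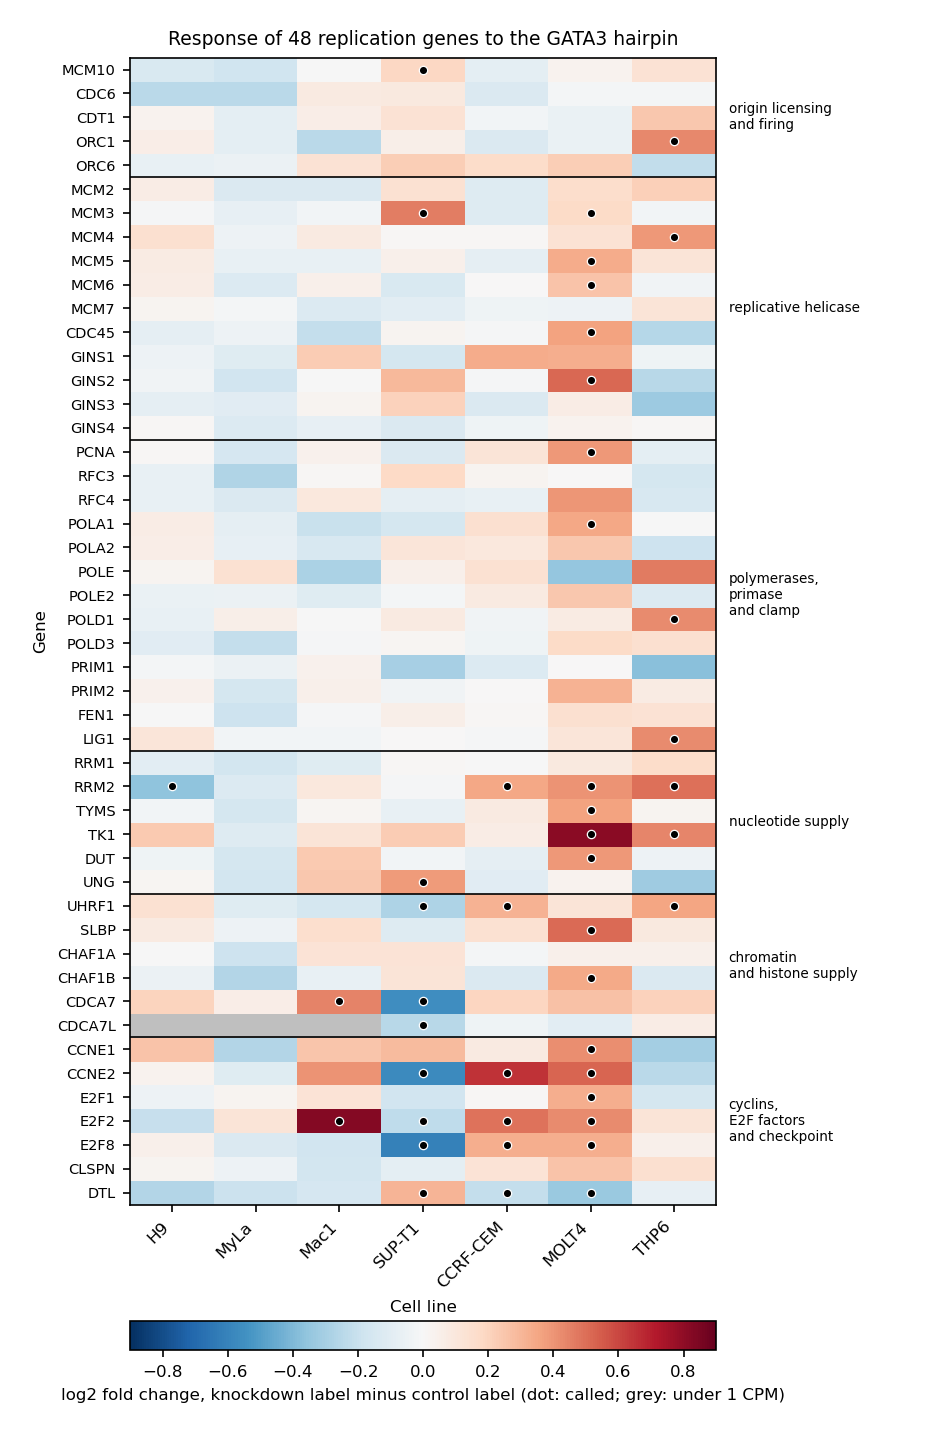
Log2 fold change (colour) of each of the 48 genes (rows, by role) in each line (columns), libraries labelled knockdown against those labelled control. Dots mark the calls, of which MOLT4 has 19, SUP-T1 10, THP6 7, CCRF-CEM 6, Mac1 2, H9 1 and MyLa 0; CDCA7L in the CTCL lines is grey.

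In MOLT4, replication genes rose in every role except origin licensing. Of 48 members 19 were called, 18 higher and 1 lower, against 19.2% of all genes (8.88% higher, 10.3% lower). The median log2 fold change was 0.23, against 0.00 for all genes. The 2 knockdown libraries lay above both controls for 37 members, where 28.4% of all genes did so, and below for 4 (32.6%), with 61% of all genes not overlapping in either direction.

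TK1 rose most in MOLT4. Its CPM was 52.4 and 54.9 in the controls and 98.4 and 89.8 in the knockdown libraries, a log2 fold change of 0.81 (SE 0.124, edgeR adjusted p = 1.52e-05). MOLT4, the line with the lowest control level of TK1, stayed under the control mean of every other line even so. Among the other nucleotide supply genes, RRM2, the regulated subunit of ribonucleotide reductase, rose from 255 ± 4.44 to 338 ± 11.96 CPM (SD, n = 2 and 2). TYMS, thymidylate synthase, rose from 397 to 511 CPM and DUT, which removes dUTP, from 138 to 180.1. RRM1 and UNG, the uracil glycosylase placed in this group, were not called.

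The E2F factors and cyclins rose with them. E2F2 had 133 and 136 CPM in the controls and 179.6 and 182 in the knockdown libraries (log2 0.43, SE 0.0728, adjusted p = 6.61e-05), with no overlap. E2F1 rose from 142 ± 0.430 to 177 ± 9.18 CPM and the repressor E2F8 from 34.0 to 42.7. CCNE1 (34.3 to 45.9 CPM) and CCNE2 (37.2 ± 0.618 to 53.5 ± 9.35) were also called higher, although the 2 knockdown libraries of CCNE2 lay apart at 46.8 and 60.1 CPM. SLBP, which binds the stem-loop of histone mRNAs, had 119 and 124 CPM in the controls and 176 and 170.2 in the knockdown libraries (log2 0.51, adjusted p = 0.000114). CHAF1B, a chromatin assembly subunit, rose from 57.8 to 73.3 CPM.

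Of the helicase genes, 5 of 11 rose in MOLT4. MCM5 went from 353 ± 9.95 to 444 ± 8.03 CPM, GINS2 from 65.0 to 92.9, CDC45 from 85.4 to 109.98, MCM6 from 389.5 to 465 and MCM3 from 487 to 549.6. Of the 13 synthesis genes, PCNA rose from 718 ± 23.5 to 941 ± 3.41 CPM and POLA1 from 47.4 to 60.5. The member called lower was DTL, a substrate receptor of the CRL4 ubiquitin ligase that destroys CDT1 at replicating DNA. Its libraries had 75.7 and 71.7 CPM in the controls and 55.3 and 61.8 on knockdown (log2 -0.33, SE 0.0852, adjusted p = 0.0053), so it went against the other 18. With 1 of the 4 libraries left out, the excess over all genes was smaller or absent. Without control 1, 5 members were called (10.4%, against 10.5% of all genes), and in the other 3 fits 7 or 8 (14.6% to 16.7%, against 10.3% to 12.6%). TK1, E2F2, SLBP and MCM5 were called in all 4 fits. In these fits 1 arm is a lone library, assumed to vary like the other groups, and the median log2 fold change was 0.20 to 0.25 without CDCA7L.

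**Figure D3:**
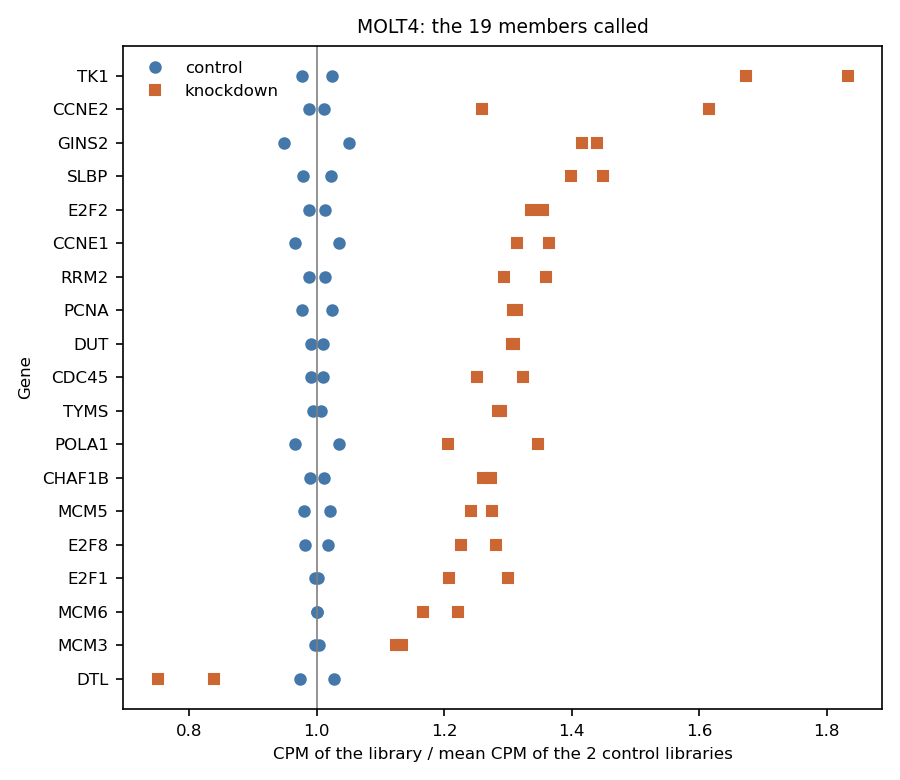
CPM of each MOLT4 library relative to the mean of the 2 controls for the 19 called genes. The 18 genes called higher have both knockdown libraries (squares) to the right of both controls (circles), with TK1 farthest, and DTL has both to the left.

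In CCRF-CEM, E2F2, E2F8, CCNE2, UHRF1 and RRM2 rose and DTL fell, while E2F1 and CCNE1 were not called. These were 6 of 48 members (12.5%), 5 higher and 1 lower, against 8.44% of all genes (3% higher, 5.43% lower), and the median log2 fold change was 0.00. E2F2 had 125, 141 and 135 CPM in the controls and 182, 189.7 and 191 on knockdown (log2 0.49, SE 0.0596, adjusted p = 1.49e-06). CCNE2 had 20.7, 14.5 and 20.6 CPM in the controls and 26.6, 30.5 and 30.8 on knockdown (log2 0.65, adjusted p = 0.000599). In both genes every knockdown library was above every control. The groups did not overlap for 9 members higher and 4 lower, against 12.8% and 15.9% of all genes.

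UHRF1, which brings the maintenance methyltransferase to replicated DNA, rose in CCRF-CEM from 498, 582 and 539.6 CPM to 656, 647 and 711 (log2 0.31, adjusted p = 0.00125). RRM2 rose from 272 ± 27.7 to 346 ± 9.58 CPM and E2F8 from 30.3 ± 1.89 to 38.2 ± 0.932 (SD, n = 3 and 3). DTL was again lower, with 129, 112 and 126 CPM in the controls and 104, 105 and 108 on knockdown (log2 -0.22, adjusted p = 0.0455). Without control 2, which stood apart, 4 members were higher and 1 lower, and RRM2 was no longer called (adjusted p = 0.0563). The DTL call was lost in 5 of the 6 fits without 1 library, all but that without control 2 (adjusted p 0.109 to 0.187). With library totals alone in place of TMM scaling, the split was 6 higher and 0 lower.

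In the CTCL lines few members were called. In Mac1, E2F2 rose from 32.5 and 29.5 CPM to 54.0 and 55.7 (log2 0.83, SE 0.0758, adjusted p = 1.91e-08), the largest fold change of the 48 genes at 1 CPM or more in any line. CDCA7, a MYC and E2F target linked to DNA methylation, rose from 126 and 123 CPM to 177 and 162 (log2 0.44, adjusted p = 0.00296). These were 2 of 48 members, against 7.89% of all genes (5.54% higher, 2.35% lower), and both were called whichever of the 4 libraries was left out. The median log2 fold change in Mac1 was 0.01. The groups of 2 did not overlap for 13 members higher and 16 lower, against 28.9% and 22.1% of all genes (50.9% in either direction).

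In H9, RRM2 was the only member called, against 1.82% of all genes (0.852% higher, 0.965% lower). It fell from 388 and 399 CPM to 302, 313 and 304 (log2 -0.36, SE 0.096, adjusted p = 0.044). The groups did not overlap, but the call was lost without any 1 of the 5 libraries (adjusted p 0.0581 to 0.299). DESeq2 called 3 members, all lower (6.25%, against 3.73% of all genes).

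In MyLa 0 of 48 members were called by edgeR, against 1.88% of all genes (1.02% higher, 0.861% lower), with 9 at an unadjusted p under 0.05. DESeq2 called 3 members there, all lower (6.25%, against 4.15% of all genes). The smallest adjusted p, 0.0627, was that of CHAF1B, at 98.9, 91.7 and 93.4 CPM in the controls and 82.7, 79.3 and 74.3 on knockdown. The members leaned one way by a small amount: 42 of 47 were fitted lower with a median log2 fold change of -0.11, while 55.0% of all genes were fitted higher. Related lists, given further below, leaned likewise in MyLa. Only 5 of 38 mitotic genes and 11 of 50 other replication genes were fitted higher (median log2 -0.09 and -0.07). Of 31 G1 to S regulators 15 were fitted higher. All 11 helicase genes, all 5 licensing genes and all 6 nucleotide supply genes were among the 42. For 21 members the 3 knockdown libraries lay below the 3 controls, where 12.4% of all genes did so. The median stayed between -0.14 and -0.10 whichever library was left out, without CDCA7L. Replicate numbers paired the MyLa libraries by the correlation of their residuals. With that block 0 members were again called, and 243 of all genes in place of 397.

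In SUP-T1, 10 members were called between the libraries labelled knockdown (higher GATA3) and those labelled control, 4 higher and 6 lower, against 16.7% of all genes (8.14% higher, 8.57% lower). MCM3 was higher, at 429, 469 and 468 CPM in the libraries labelled control and 622, 629 and 629.6 in those labelled knockdown (log2 0.46, SE 0.047, adjusted p = 2.04e-08). DTL had 97.4, 105 and 97.8 CPM against 124, 122 and 126 (log2 0.30, adjusted p = 0.0019). UNG, the uracil glycosylase, had 169, 175 and 172 CPM against 230.01, 243 and 199 (log2 0.38, adjusted p = 0.00457). In none of these 3 genes did the groups overlap. Of all 48, 12 did not overlap and were higher and 11 lower, against 15.8% and 18.7% of all genes (34.5% in either direction).

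The genes lower in the SUP-T1 libraries labelled knockdown were led by CDCA7, E2F8 and CCNE2. CDCA7 had 181, 183 and 165 CPM in the libraries labelled control and 121, 120.1 and 119 in those labelled knockdown (log2 -0.56, adjusted p = 4.9e-06). E2F8 had 31.4, 29.8 and 26.7 CPM against 19.9, 19.8 and 18.1 (log2 -0.61, adjusted p = 5.36e-06). CCNE2 had 55.4, 55.1 and 54.5 CPM against 38.4, 39.2 and 33.4 (log2 -0.57, adjusted p = 0.000774). UHRF1 (1032 to 850.2 CPM), E2F2 (321 to 274) and CDCA7L (124 to 104) were also called lower, and MCM10, which joins the helicase to polymerase alpha, higher (79.1 to 89.9). Of the 10, 8 were called in every fit without 1 SUP-T1 library, E2F2 and MCM10 not.

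Of these 10 members 7 were also called in another line, and 6 of the 7 only in the opposite direction of labels: CCNE2, E2F2, E2F8, UHRF1, CDCA7 and DTL. MCM3 was higher in both SUP-T1 and MOLT4. An opposite direction was also common among all genes: of those called in SUP-T1 and in a second line, 72.1% (THP6) to 83.7% (CCRF-CEM) were opposite. The members' 6 of 7 is counted per gene and these shares per second line, so the measures are unlike. Counted per line, members were opposite for 2 of 2 in Mac1 (77.2% of all genes) and 5 of 5 in CCRF-CEM (83.7%). They were opposite for 4 of 5 in MOLT4 (77.0%) and 1 of 1 in THP6 (72.1%). The difference was not tested.

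In THP6, 7 members were called, all higher, against 7.4% of all genes (5.56% higher, 1.84% lower), and these calls rest on knockdown 2. RRM2 had 278, 283 and 261 CPM in the controls, 323 in knockdown 1 and 450.1 in knockdown 2 (log2 0.50, SE 0.0959, adjusted p = 0.0022). MCM4 had 297, 304 and 292 CPM in the controls, 335 in knockdown 1 and 447 in knockdown 2 (log2 0.39, adjusted p = 0.00133). UHRF1 had 284, 287 and 295 CPM in the controls, 334 in knockdown 1 and 406 in knockdown 2 (log2 0.36, adjusted p = 0.00262). In these 3 genes knockdown 1 also lay above every control. The groups did not overlap for 8 members higher and 1 lower, against 10.4% and 7.3% of all genes.

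For the other 4 called in THP6, ORC1, TK1, LIG1 and POLD1, knockdown 1 lay within the range of the controls. POLD1, the catalytic subunit of polymerase delta, had 302, 316 and 314 CPM in the controls, 303 in knockdown 1 and 532 in knockdown 2. Without knockdown 2 none of the 7 was called (adjusted p 0.394 to 1), the log2 fold change of POLD1 was -0.03, and the 1 member called was CLSPN, the checkpoint adaptor claspin (adjusted over 21898 genes, of which 0.338% were called). Without knockdown 1 there were 30 calls, 12 higher and 18 lower (62.5%, against 36% of all genes). In knockdown 2 PRIM1, the small primase subunit, was at 40.4 CPM against 83.0 to 91.7 in the controls and 95.4 in knockdown 1. The fit of the THP6 libraries alone called 0 members, and with library totals alone in place of TMM the split was 6 higher and 1 lower.

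The lines differed from each other in how replication genes responded. The response of 24 of 48 members differed between the 7 lines (edgeR F test, adjusted p under 0.05), against 35.2% of all genes, and that of 18 between the 6 lines other than SUP-T1, against 25% of all genes. E2F2 differed most, with an adjusted p of 2.49e-09 over 7 lines and 1.05e-07 over 6. Among the 6 lines its log2 fold change ran from -0.20 in H9, where it was not called, to 0.83 in Mac1. RRM2 was second over the 6 lines (adjusted p = 6.55e-05), called lower in H9 and higher in CCRF-CEM, MOLT4 and THP6. UHRF1, TK1, CCNE2 and CCNE1 followed (0.000536, 0.00101, 0.0029 and 0.00636). CCNE1 was fitted at 0.42 in MOLT4 and -0.30 in THP6, but at -0.01 in THP6 without knockdown 2. Without THP6 knockdown 2, a choice made after seeing the data, 33 members differed between the 7 lines and 27 between the 6, while the shares of all genes rose to 41.1% and 29.7%.

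**Figure D4:**
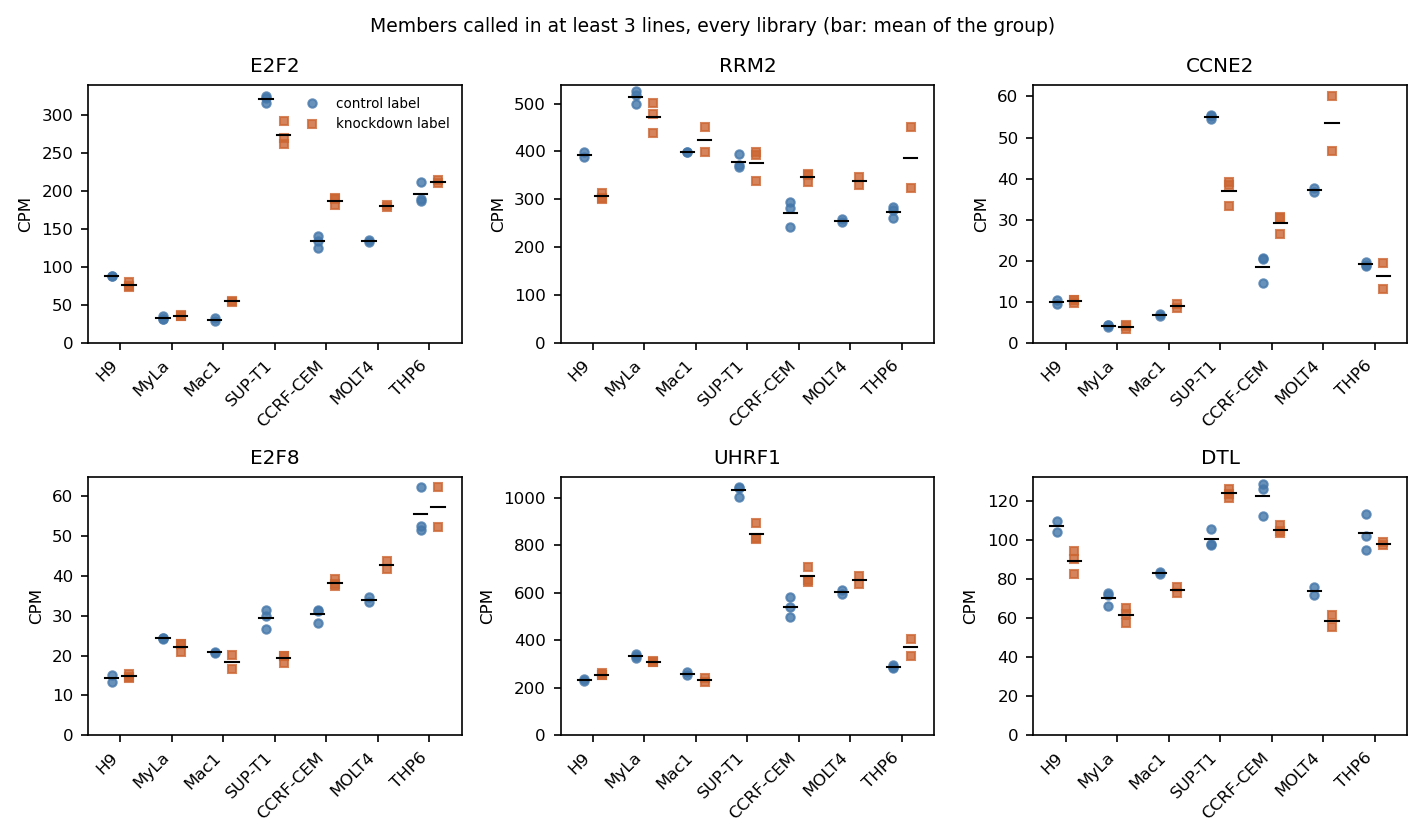
CPM of every library for the 6 members called in at least 3 lines, by line and label, with group means as bars. E2F2 is higher on knockdown in Mac1, CCRF-CEM and MOLT4 and lower in the SUP-T1 libraries labelled knockdown, and in THP6 RRM2 and UHRF1 are highest in 1 knockdown library.

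E2F2 and RRM2 were called in 4 lines each, the most of any member, and CCNE2, E2F8, UHRF1 and DTL in 3. The share of all genes called in 3 or 4 lines was not counted. In none of its 4 lines did the RRM2 call hold in every fit without 1 library, and that of E2F2 did not in SUP-T1. DTL was fitted lower on knockdown in all 6 lines other than SUP-T1, from -0.08 in THP6 to -0.33 in MOLT4, and below every control in 5 of them. Its means were 107 and 89.1 CPM in H9, 70.1 and 61.4 in MyLa and 82.9 and 74.5 in Mac1, without a call in these 3 lines (adjusted p 0.0773 to 0.316). CDCA7 was fitted higher in the same 6 lines, from 0.06 in MyLa to 0.44 in Mac1, with groups that did not overlap in 4 of them. No other member was fitted in 1 direction in all 6 lines. The share of all genes fitted so was not counted, so the like direction of DTL and CDCA7 has no background beside it.

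With counts summed per line and arm, so that lines were the replicates, 0 members were called over the 6 lines other than SUP-T1 by edgeR, against 0.017% of all genes. DTL had the lowest p there (log2 -0.22, SE 0.0557, adjusted p = 0.524), then CDCA7 (0.22, SE 0.066, adjusted p = 0.628), and 4 members had an unadjusted p under 0.05. DESeq2 called DTL (adjusted p = 0.00777), with 0.703% of all genes called. With any 1 line left out edgeR again called 0 members (adjusted p of DTL 0.511 to 0.936). Over all 7 lines 0 members were called by either tool, against 0% of all genes by edgeR and 0.00267% by DESeq2. By edgeR 1 member had an unadjusted p under 0.05. The lowest p were those of TK1 (log2 0.25, SE 0.0957) and DTL (-0.14, SE 0.0759), with adjusted p of 1.00. The mean response differed between the CTCL and T-ALL lines for 0 members by either tool, against 0% of all genes by edgeR and 0.0941% by DESeq2. By edgeR 1 member had an unadjusted p under 0.05. RRM2 had the lowest p (CTCL minus T-ALL -0.42, SE 0.161), then TK1 (-0.29, SE 0.182), with adjusted p of 1.

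In MOLT4 other genes of DNA replication were called only higher, and in SUP-T1 they were called at about the share of all genes. Of 50 such genes, 11 rose and 0 fell in MOLT4 (median log2 0.15). That was 22% higher, against 8.88% of all genes higher and 10.3% lower (19.2% in either direction). Among the 11 were RPA1, the large single-strand binding subunit (214 to 274 CPM), the thymidylate kinase DTYMK (97.5 to 144) and the histone chaperone ASF1B (169 to 211). In SUP-T1 2 were higher and 5 lower (14% against 16.7%), including the licensing inhibitor GMNN (118 to 166) and the deoxycytidine kinase DCK (168 to 123). In CCRF-CEM 2 rose (4% of the list, against 8.44% of all genes), among them ATAD2 (193 to 246 CPM). In Mac1 1 rose (MSH6) and 1 fell (TICRR, 53.5 to 38.0), 4% against 7.89%. In H9 and MyLa 0 were called by edgeR, against 1.82% and 1.88% of all genes. The share of the list called in THP6 was 6%, against 7.4%. In THP6 3 rose, DNMT1, CCNA2 and TICRR, but without knockdown 2 the 1 gene called was HELLS.

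Of 31 tested G1 to S regulators, which gate entry into S phase, MOLT4 had 7 higher and 7 lower (45.2%, against 19.2% of all genes). There the cyclin D3 gene CCND3 rose from 512 ± 16.4 to 1219 ± 40.0 CPM, CCND2 fell from 7.72 to 1.52, and CDKN1A, the p21 inhibitor gene, rose from 7.38 to 39.1 (SD, n = 2 and 2). CCRF-CEM had 10 higher and 3 lower (41.9% against 8.44%), with the inhibitor genes CDKN2C (87.0 to 155 CPM) and CDKN1B (48.6 to 78.0) among those that rose and CCND2 (30.2 to 18.8) among those that fell. In SUP-T1 2 were higher and 8 lower (32.3% against 16.7%), with the cyclin E ubiquitin ligase gene FBXW7 at 62.0 and 22.7 CPM. FBXW7 rose in Mac1 (26.1 to 39.1), where 3 were higher and 3 lower (19.4% against 7.89%). In H9 2 rose and 1 fell (CCND2, 506 to 370.1 CPM), 9.68% of the list against 1.82% of all genes. In MyLa 1 of 31 fell (TFDP1, the E2F partner, 346 to 286 CPM), against 1.88% of all genes. In THP6 4 rose and 2 fell (19.4% against 7.4%), but without knockdown 2 the 1 gene called was CDK6, which was higher.

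Of 38 mitotic genes, 15 rose and 0 fell in CCRF-CEM (39.5%, against 8.44% of all genes, median log2 0.22), among them ANLN (50.7 to 67.3 CPM) and KIF23 (48.8 to 64.5). Without CCRF-CEM control 2, whose mean log2 level of the 38 genes was 6.78 against 6.97 and 6.98 in the other controls, 8 rose, with 5.45% of all genes called. In MOLT4 11 rose (12 of 38 called, 31.6% against 19.2%), such as AURKB (86.6 to 136), and 1 fell, the kinesin gene KIF20A (69.996 to 40.5), which was also the 1 gene called in MyLa (115 to 67.9). In SUP-T1 1 was higher and 10 lower (28.9% against 16.7%), such as TTK (177 to 107). THP6 had 20 higher and 0 lower (52.6% against 7.4%), but edgeR called 0 without knockdown 2, with 0.338% of all genes called. MKI67, the proliferation marker, had 430.2 and 1172 CPM in its knockdown libraries against 261 to 337 in the controls. The mean log2 level of the mitotic genes was 7.37 and 7.44 in the THP6 knockdown libraries and 7.12 to 7.19 in the controls, and that of the 48 replication genes was 7.10 and 6.93 against 6.97 to 7.03. In H9 0 of 38 were called, against 1.82% of all genes, and in Mac1 1 rose and 1 fell (5.26% against 7.89%). The 1 gene called in MyLa was 2.63% of the list, against 1.88% of all genes. The part of depth, of the cell cycle and of the libraries that stood apart in these differences was not tested.

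**Figure D5:**
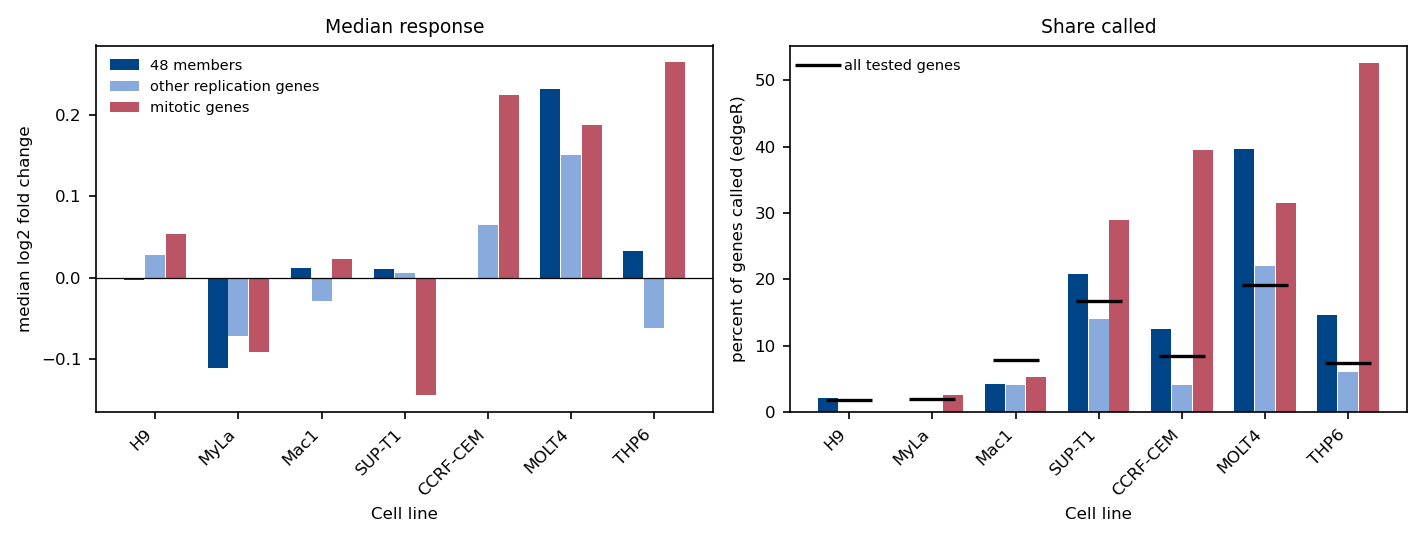
Left, median log2 fold change of the 48 replication genes, 50 other replication genes and 38 mitotic genes in each line. Right, share called (percent), with the share of all tested genes as a black line; the 48 genes reach 39.6% in MOLT4, where all genes are at 19.2%.

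Reads of 7 members could be shared with annotated pseudogenes, among them PCNA and RRM2, and 23 members overlap a gene on the other strand, CCNE2, E2F8, DTL and CDCA7 included. Whether the counting used strand is not given, so the levels of these genes are uncertain to that extent.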

How the data were processed

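RNA was measured in 36 libraries by sequencing polyadenylated RNA. The authors deposited expected counts per gene, all whole numbers, made with cutadapt 2.3, STAR 2.7.8a and RSEM 1.3.3 on GRCh38, per the submitters' processing notes. The release of the gene annotation is not named there. Groups were taken from the sample titles. edgeR 4.0.16 (R 4.3.3) with TMM scaling and its expression filter was fitted to all 36 libraries in 14 groups, with quasi-likelihood tests per line and Benjamini-Hochberg adjustment over 21138 genes (threshold 0.05). CPM are counts scaled to the TMM-adjusted library total. Fold changes carry a pseudocount of 0.125 and their SE is the fold change divided by the root of F. Tests with lines as replicates used counts summed per line and arm. GENCODE 29 held 96.5% of the gene identifiers. The members and gene lists were chosen with earlier results of these data known. Named were all members called in a line, with every library for the 3 lowest adjusted p per direction, the 4 widest and 2 narrowest ranges of control level, up to 6 members per test between lines or the 2 lowest p, and up to 3 genes per list and line.

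Depth ran from 18.6 M to 50.6 M counts per library. On simulated counts, the share of changed genes recovered per line was 7.35% to 28.1% at 1.25-fold, 61.9% to 96.4% at 1.5-fold and 97.4% to 100% at 2-fold. Each gene was simulated with the same dispersion in all groups, so the wider scatter of THP6 knockdown 2 and CCRF-CEM control 2 was not simulated. Same-numbered libraries were checked for pairing by the correlation of their residuals: 17 correlations ran from -0.16 to 0.228, and all 3 were over 0.1 in MyLa alone. Alternatives were DESeq2 1.42.0, its size factors, library totals, no filter, each line alone, the replicate block and each library or line left out; those without THP6 knockdown 2 or CCRF-CEM control 2 for the differences between lines and for the other gene lists were chosen after seeing the data.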

Additional observations from a re-analysis of the deposited data

Results flagged for a closer look

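The response to knockdown differed between the 7 lines for 24 of the 48 replication genes by edgeR's F test of the difference itself. The lowest adjusted p were those of E2F2 (2.49e-09), MCM3 (8.18e-07), CDCA7 (3.3e-06), E2F8 (9.33e-06), UHRF1 (1.08e-05) and CCNE2 (2.19e-05). SUP-T1, whose labels go against its GATA3 level, is 1 of these lines. Between the 6 other lines 18 genes differed, led by E2F2 (edgeR adjusted p = 1.05e-07), RRM2 (6.55e-05), UHRF1 (0.000536), TK1 (0.00101), CCNE2 (0.0029) and CCNE1 (0.00636). MCM3 and CDCA7 were not among the 18.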

How the results depend on the processing

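Calls of members changed with the tool, the fit and the libraries used. The single call in H9 became 3 with DESeq2, 2 with DESeq2 size factors and 0 with the replicate block, and 0 to 1 without each library. In MyLa 0 became 3 with DESeq2 (6.25%, against 4.15% of all genes) and 5 when the line was fitted alone (10.6%, against 8.84%). In H9 DESeq2 called 6.25% of the members and 3.73% of all genes. The fit of MOLT4 alone called 62.5% of the members and 41.2% of all genes. In MOLT4 19 became 30 when fitted alone and 5 to 8 without each library. In THP6 7 became 0 when fitted alone and 1 to 30 without each library, and the log2 fold change of POLD1 was -0.033 without knockdown 2 and 0.78 without knockdown 1. DESeq2 called 1 member over the 6 lines (2.08%, against 0.703% of all genes). Between the control classes it called 3 (CCNE2, E2F2 and CDCA7L), 6.25% against 8.85% of all genes. The causes were not tested. With the replicate block MOLT4 had 19 calls, SUP-T1 11, THP6 and CCRF-CEM 5 each, Mac1 2 and MyLa 0. The block called 17.2% of all genes in MOLT4, 14.9% in SUP-T1, 2.23% in THP6, 6.76% in CCRF-CEM, 6.56% in Mac1 and 1.15% in MyLa. With it 19 and 12 members differed between the 7 and the 6 lines, against 27.4% and 17% of all genes. Over all genes the calls ran from 108 to 639 in H9 (384 as reported), 196 to 1374 in MyLa (397), 562 to 2752 in Mac1 (1668), 2260 to 6797 in MOLT4 (4054) and 0 to 7900 in THP6 (1564). No called member changed sign under another scaling, but the members' median did with library totals in Mac1 (-0.06), CCRF-CEM (0.05) and THP6 (-0.02). The depth and the replicate numbers left most changes of the smallest simulated size unrecovered (7.35% to 28.1% found per line).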
